A study of Homo sapiens with 4 samples.

Results

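The core spliceosome genes described here are mostly the protein components of the small nuclear ribonucleoproteins (snRNPs) and their closest partners. They were measured in SK-MEL-28, an established human melanoma cell line. Members were chosen by their symbols: SNRPA to SNRPG, SNRNP, LSM, SF3A or SF3B and PRPF followed by a number, and SF1, U2AF1 and U2AF2. The rule also took in 6 LSM genes outside U6, which are not all part of the spliceosome. A mean of at least 1 FPKM (a level per length and depth: fragments for each kilobase of the transcript and each 1000000 fragments mapped) over the 4 libraries was required. Of 57 matching symbols 56 passed, among 11147 genes above the same limit and 25268 symbols in the table. The symbol left out, the pseudogene SNRPD2P2, was listed at 0 in every library, and the lowest members inside the limit, PRPF40B and LSM11, had means of 1.44 and 1.47 FPKM. The 6 families held 11 SNRP, 7 SNRNP, 13 LSM, 9 SF3 and 13 PRPF genes, and the 3 genes SF1, U2AF1 and U2AF2. The RNA-Seq compared cells transduced with an empty pTRIPZ lentiviral vector (the vector line, here vector cells) and cells carrying MYC behind a Tet-inducible promoter (the MYC-inducible line, here MYC cells), each without doxycycline (Dox) and with Dox for 54 h. Both lines were selected with and kept in G418 (geneticin), and whether either is 1 clone was not stated in the sources used here. Each condition is 1 library, so the differences below could not be checked against replicates and carry no p-value.

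Introns are removed from pre-mRNA by the spliceosome, which assembles from the U1, U2, U4, U5 and U6 snRNPs. The U1, U2, U4 and U5 RNAs carry a ring of Sm proteins, and U6 RNA carries a similar ring of LSM proteins. SF1 and the U2AF proteins read the branch point and the 3′ splice site before the U2 snRNP, with its SF3A and SF3B subcomplexes, takes their place, and the PRPF proteins act in the U5 and U4/U6 snRNPs and in the later rearrangements. The U11/U12 snRNP does the same work for a rare class of introns. MYC is known as an activator of growth genes, and genes of the splicing machinery have been named among its targets.

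MYC itself had 58.3 and 54.8 FPKM in the vector cells without and with Dox, and 76.5 and 87.1 FPKM in the MYC cells. The library with the inducible gene and Dox was the highest, and the MYC cells were already above the vector cells without Dox, by a log2 difference of 0.39. With Dox MYC changed by 0.19 on the log2 scale in the MYC cells, which is under 1.2-fold, and by -0.09 in the vector cells. The paper reported MYC induction by Dox in MYC-inducible SK-MEL-28 cells from RT-PCR of MYC mRNA and a reporter of MYC activity. Approximate depth, estimated from the size of 1 fragment in genes with very low values, was between 34900000 and 41800000 fragments per library. All 8 melanocytic markers were expressed. Their summed level was 8578 and 8467 FPKM in the vector cells without and with Dox and 8433 and 4666 FPKM in the MYC cells. In the MYC cells 8 of 8 were lower with Dox than without, as were 5917 of all 11147 genes. The 4 immune markers summed to at most 0.0621 FPKM in any library. Of 5 fibroblast markers only LUM reached a mean of 1 FPKM and COL3A1 was at 0, and of 3 epithelial markers only EPCAM did, at 0.73 FPKM without and 2.71 FPKM with Dox in the MYC cells. Of 8 proliferation markers, 4 (CCNB1, AURKB, PLK1 and CCNA2) were at least 1.2-fold higher with Dox in the MYC cells and 0 in the vector cells. In the MYC cells MKI67 and TOP2A had log2 changes of -0.18 and -0.23, and the summed level of the 8 went from 374 to 439 FPKM, against 360.4 and 364 FPKM in the vector cells. The part of these shifts in the results below was not tested, and in bulk RNA fewer cells of a type and less RNA per cell cannot be told apart.

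The core spliceosome genes were mostly higher with Dox in the MYC cells and nearly level with Dox in the vector cells. The change of a gene is the difference of log2(FPKM + 0.1) between 2 libraries, which understates the change of low genes, and a gene is called higher or lower at 1.2-fold or more. In the MYC cells 31 of 56 members were called higher with Dox and 1 was called lower, where 21% and 26.1% of all 11147 genes were called. The median log2 change was 0.28 over the members and -0.03 over all genes. Counted by sign alone, 51 of 56 members were higher, against 46.8% of all genes. Once the libraries were scaled to one FPKM sum, 46 members were higher and the median of all genes was -0.07. The share of all genes higher by sign under that scaling is not given here. At 1.5-fold, 2 members (SNRPA1 and SNRPF) were higher and 0 lower, against 5.9% and 8.85% of all genes. Changes of the members were therefore frequent in one direction and modest in size, between -0.30 and 0.73.

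In the vector cells 1 of 56 members, PRPF40B, was called higher with Dox and 0 were called lower, where 3.61% and 2.83% of all genes were called. By sign 34 of 56 members were higher, against 54.2% of all genes, with a median log2 change of 0.03. No member passed 1.5-fold, which 0.709% of all genes did upwards and 0.44% downwards. The robust SD of the vector change, a scaled median absolute deviation across genes, was 0.11 for all genes and 0.07 for the members, and serves as the nearest available measure of how far 2 libraries of 1 line differ. The change in the MYC cells minus that in the vector cells reached 1.2-fold upwards for 26 members and downwards for 2 (LSM14B and PRPF40B), against 20.2% and 27.1% of all genes, with a median of 0.21. Of the 4 libraries, the MYC-inducible one with Dox was the highest for 45 of 56 members, as it was for 40.2% of all genes. Some of the Sm, SF3 and U2AF genes are among the splicing-related genes that the study itself showed from these libraries, so their direction is not independent evidence.

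**Figure D1:**
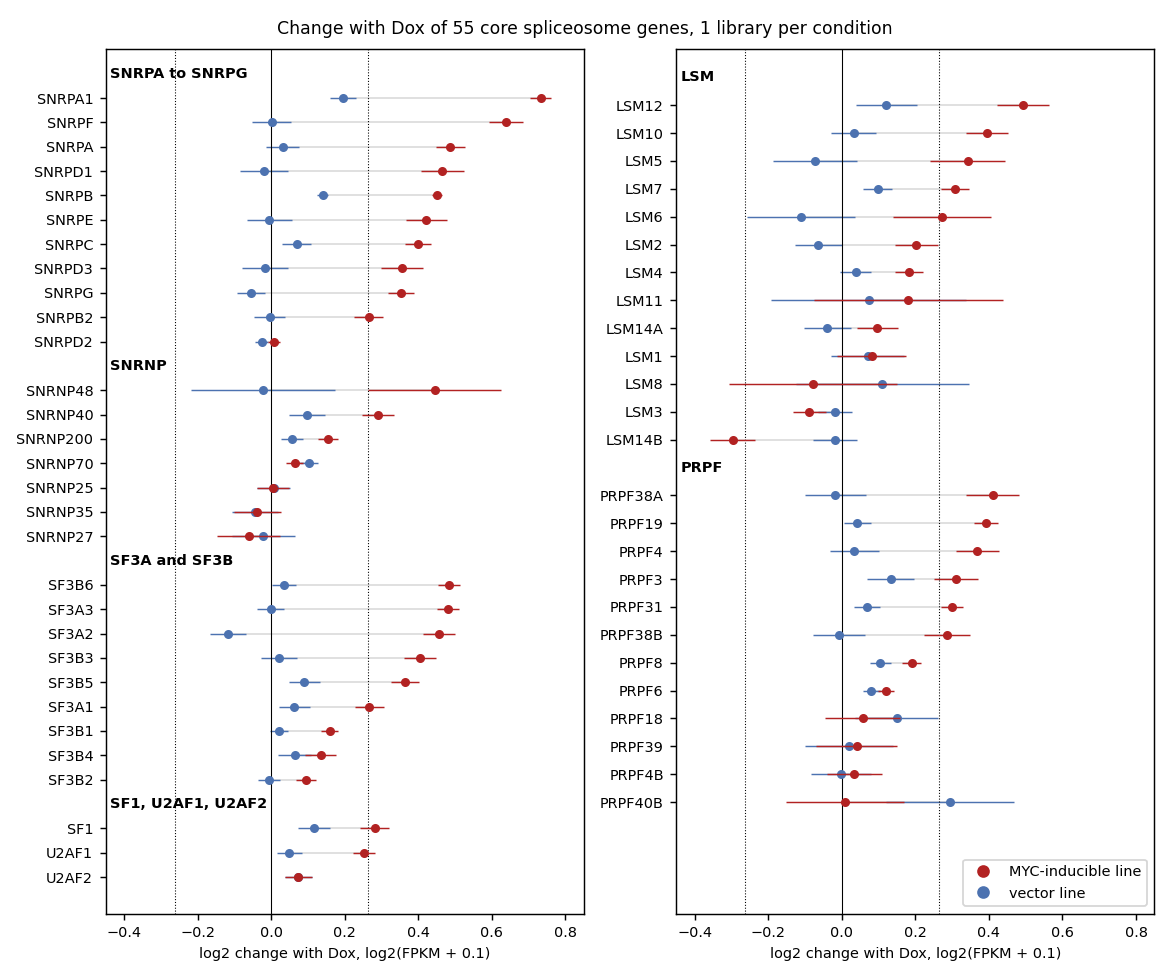
Log2 change with Dox (x axis, log2(FPKM + 0.1)) of 55 core spliceosome genes (rows, by family), in the MYC cells (red) and the vector cells (blue), from 1 library per condition. Bars are approximate counting errors, dotted lines mark 1.2-fold, and 30 red points lie beyond the line on the right while 1, LSM14B, lies beyond the line on the left.

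The families differed in how many of their genes moved, where 21% of all genes were called higher and 26.1% lower in the MYC cells. Of the 11 SNRP genes 10 were called higher in the MYC cells, with a median log2 change of 0.42. The 9 SF3 genes had a median of 0.36 with 6 called higher, and the 13 PRPF genes 0.29 with 7. The median was 0.25 for SF1, U2AF1 and U2AF2, with 1 gene called, and 0.18 for the 13 LSM genes, with 5 called higher and 1 lower. The 7 SNRNP genes had a median of 0.06, and 2 were called higher, a share near that of all genes. Without the 3 SNRNP genes whose exons overlap another gene, the median of this family was 0.18. In this comparison SNRP stood highest and SNRNP lowest among the families, although 1 gene of the SNRP family (SNRPD2) did not move. In the vector cells the 6 medians lay between -0.01 and 0.07. Against the vector cells with Dox, SF3 stood above SNRP, with medians of 0.38 and 0.35. These differences between families have no test, since genes of 1 pair of libraries are not replicates.

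Promoters were examined for the E-box, the motif bound by MYC with MAX, because many members moved together. Windows of 250 bases before to 50 after the start, from RefSeq on GRCh38.p14, were found for 46 of the 56 members and searched for CACGTG, which reads the same on both strands, and for the related CACGCG on either strand, and the motifs can share bases. CACGTG was in 7.26% of all 35116 promoters, in 13.2% of the 8381 genes above the filter and in 2 of the 46 members, SNRNP48 and SF3B1. CACGCG was in 11.4% of all promoters, 23.6% of those genes and 13 of the 46 members. Of the 13 members with CACGCG 6 were called higher, and of the 33 without it 20, with medians of 0.25 and 0.30. Over all genes above the filter 24.6% of those with CACGCG and 19.6% of those without were called higher. For CACGTG the shares called higher were 27.9% with it and 19.7% without. Medians over these genes were 0.03 with CACGCG and -0.05 without, and 0.02 with CACGTG and -0.03 without. In the SNRP family 0 of 10 genes with a promoter held CACGTG and 2 held CACGCG. A missing match says only that these letters are not in the window.

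The 250 bases before the start are shown for the 2 members with an E-box and for the 2 with the largest change, 5′ to 3′ on the strand of the gene, with CACGTG or CACGCG in capitals. SNRNP48 (chr6:7589948-7590197, plus strand) has the E-box 33 bases before the start, and SF3B1 (chr2:197435029-197435278, minus strand, 1 of 2 annotated starts) has it 108 bases before. Their log2 changes in the MYC cells were 0.44 and 0.16. SNRPA1 (chr15:101295249-101295498, minus strand) and SNRPF (chr12:95858702-95858951, plus strand), at 0.73 and 0.64, hold neither motif. All 4 promoter positions are on GRCh38.p14, whereas the gene positions below are on GRCh37.
SNRNP48: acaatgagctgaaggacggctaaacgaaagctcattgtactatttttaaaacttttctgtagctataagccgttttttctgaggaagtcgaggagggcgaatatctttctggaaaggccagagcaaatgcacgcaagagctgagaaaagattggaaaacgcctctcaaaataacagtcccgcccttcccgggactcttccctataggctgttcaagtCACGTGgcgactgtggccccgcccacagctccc
SF3B1: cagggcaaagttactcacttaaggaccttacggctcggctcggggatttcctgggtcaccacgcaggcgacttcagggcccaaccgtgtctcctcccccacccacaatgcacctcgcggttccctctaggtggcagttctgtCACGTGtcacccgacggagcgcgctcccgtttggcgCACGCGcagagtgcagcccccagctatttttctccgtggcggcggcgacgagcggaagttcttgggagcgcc
SNRPA1: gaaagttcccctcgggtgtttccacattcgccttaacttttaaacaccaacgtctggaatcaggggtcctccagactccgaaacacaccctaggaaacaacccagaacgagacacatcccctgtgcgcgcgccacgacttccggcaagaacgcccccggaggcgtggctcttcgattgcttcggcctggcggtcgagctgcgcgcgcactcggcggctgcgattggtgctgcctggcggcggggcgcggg
SNRPF: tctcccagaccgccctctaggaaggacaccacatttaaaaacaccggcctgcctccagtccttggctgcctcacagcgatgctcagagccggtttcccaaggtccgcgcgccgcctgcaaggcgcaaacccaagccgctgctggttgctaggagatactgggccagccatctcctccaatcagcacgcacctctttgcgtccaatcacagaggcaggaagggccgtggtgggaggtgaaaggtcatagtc

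The 7 Sm ring genes encode the shared core of the U1, U2, U4 and U5 snRNPs. With Dox in the MYC cells 6 were called higher, by log2 changes of 0.35 to 0.64, and SNRPD2 was level. Of all genes 21% were called higher there. SNRPF, at chr12:96252730-96297606 on GRCh37 and without either motif in the promoter shown, went from 154.9 to 241.1 FPKM with Dox in the MYC cells and from 156.6 to 156.7 FPKM in the vector cells. The 2 vector libraries and the untreated MYC library lay close together and the MYC library with Dox stood alone, a log2 change of 0.64 with an approximate counting error of 0.0458, and of 0.00 in the vector cells. SNRPD1 had 70.0 FPKM in the untreated MYC cells and 96.7 FPKM with Dox, against 73.3 and 72.3 FPKM in the vector cells, again with 1 library apart. Its log2 change was 0.47 in the MYC cells and -0.02 in the vector cells. SNRPE had vector levels of 109 FPKM without and 108 FPKM with Dox, and levels of 105 and 139.9 FPKM in the MYC cells. SNRPD3 had 76.9 and 75.9 FPKM in the vector cells without and with Dox, and 72.9 and 93.4 FPKM in the MYC cells. Both were highest in the MYC cells with Dox, with log2 changes of 0.42 and 0.36, against -0.01 and -0.02 in the vector cells.

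SNRPG went from 337 to 431 FPKM with Dox in the MYC cells and from 354 to 341 FPKM in the vector cells, log2 changes of 0.35 and -0.06. SNRPB, which encodes the B and B′ proteins, had 662 FPKM in the untreated MYC cells and 905 FPKM with Dox, against 672 and 741 FPKM in the vector cells. It was higher with Dox in both lines, by 0.14 in the vector cells and 0.45 in the MYC cells, the largest vector change in the ring. SNRPD2 had vector levels of 1043 FPKM without and 1025 FPKM with Dox, and levels of 1024 and 1029.5 FPKM in the MYC cells. Its 4 values span less than the change of any other ring gene in the MYC cells, and its log2 change there was 0.0079 with a counting error of 0.0168. Its exons overlap those of QPCTL, which had 87.8 FPKM without and 62.6 FPKM with Dox in the MYC cells, and the part of this overlap was not tested.

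Although each Sm protein enters the ring once, the levels of the genes per length differed widely. SNRPD2 was the highest in all 4 libraries, followed by SNRPB, SNRPG, SNRPF and SNRPE in the same order in each. SNRPD3 and SNRPD1 were the lowest and near each other, and SNRPD1 passed SNRPD3 only in the MYC cells with Dox. The highest gene was 14.2, 14.2 and 14.6 times the lowest in the vector cells without Dox, with Dox and the untreated MYC cells, and 11.03 times in the MYC cells with Dox. The span from SNRPD2 to the lowest gene was thus smaller there, where 6 ring genes were higher and SNRPD2 was not. The other genes did not all draw together. The level of SNRPF was 1.48 times that of SNRPE without Dox and 1.72 times with Dox in the MYC cells, and 1.44 and 1.45 times in the vector cells. The summed level of the 7 genes went from 2426 to 2936 FPKM with Dox in the MYC cells and from 2486 to 2519.6 FPKM in the vector cells. FPKM values of such short transcripts depend on the length the authors' program assumed, which was not stated, so levels between genes are rougher than changes of 1 gene.

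**Figure D2:**
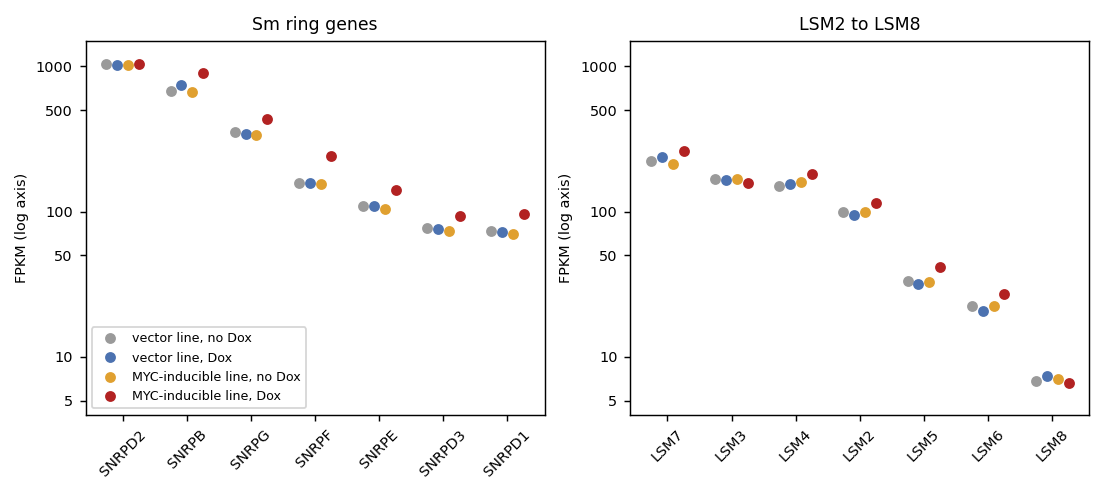
FPKM (y axis, log scale) of the 7 Sm ring genes (left) and of LSM2 to LSM8, the ring on U6 RNA (right), with 1 point for each of the 4 libraries. SNRPD2 stays at 1024 to 1029.5 FPKM with Dox in the MYC cells while the other Sm genes move up, and LSM8 lies lowest at 6.65 to 7.37 FPKM.

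U1 recognises the 5′ splice site, and its 3 specific proteins did not move together. SNRPC had 149.7 and 157 FPKM in the vector cells without and with Dox, and 152 and 199.9 FPKM in the MYC cells, a log2 change of 0.40 in the MYC cells. SNRPA went from 63.9 to 89.7 FPKM with Dox in the MYC cells and from 67.5 to 68.9 FPKM in the vector cells, with a log2 change of 0.49. Both were highest in the MYC cells with Dox and changed by 0.07 and 0.03 in the vector cells. SNRNP70, which binds a stem-loop of U1 RNA, had 155 FPKM in the untreated MYC cells and 162 FPKM with Dox, against 148 and 159 FPKM in the vector cells. Its 4 libraries hardly differed, and its log2 change of 0.06 in the MYC cells was smaller than that of 0.10 in the vector cells. The level of SNRNP70 was 2.42 times that of SNRPA without Dox and 1.81 times with Dox in the MYC cells, and 2.20 and 2.31 times in the vector cells.

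The U2 snRNP, which pairs with the branch point, held the member with the largest change. SNRPA1, at chr15:101821715-101835487 on GRCh37, had vector levels of 111 FPKM without and 127 FPKM with Dox, and levels of 126 and 209.7 FPKM in the MYC cells. It was lowest in the vector cells without Dox, at nearly the same level in the vector cells with Dox and the untreated MYC cells and far above them in the MYC cells with Dox, with log2 changes of 0.73 in the MYC cells and 0.19 in the vector cells. Its exons overlap those of PCSK6 on the same strand, which had between 0.364 and 0.639 FPKM. SNRPB2, the partner of SNRPA1 on U2 RNA, had 90.3 and 90.0 FPKM in the vector cells without and with Dox, and 87.9 and 106 FPKM in the MYC cells, and its log2 change was 0.26 in the MYC cells and -0.01 in the vector cells. The level of SNRPA1 was 1.23 and 1.41 times that of SNRPB2 in the vector cells, 1.44 times in the MYC cells without Dox and 1.99 times with Dox.

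All 9 SF3 genes had more RNA with Dox in the MYC cells, and in each of them that library was the highest of the 4. Of all genes 46.8% were higher there, and that library was the highest for 40.2%. The 3 genes of SF3A, which joins U2, had log2 changes of 0.48 for SF3A3, 0.46 for SF3A2 and 0.27 for SF3A1. SF3A3 went from 60.3 to 84.2 FPKM with Dox in the MYC cells and from 57.3 to 57.2 FPKM in the vector cells, and its vector libraries were nearly equal. SF3A2 had 34.0 FPKM in the untreated MYC cells and 46.6 FPKM with Dox, against 36.0 and 33.2 FPKM in the vector cells, with a log2 change of -0.12 in the vector cells. Its exons overlap those of PLEKHJ1, which had 69.2 and 76.3 FPKM in the MYC cells. SF3B holds the branch point helix. Its subunit SF3B6 (p14), which lies next to the branch adenosine, had vector levels of 271 FPKM without and 278 FPKM with Dox, and levels of 271 and 379.6 FPKM in the MYC cells. SF3B5 had 234 and 249 FPKM in the vector cells without and with Dox, and 252 and 324 FPKM in the MYC cells. Their log2 changes were 0.48 and 0.36, and 0.04 and 0.09 in the vector cells.

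SF3B1, the other gene with an E-box before its start and the scaffold that is often mutated in cancer and is the target of splicing inhibitors, went from 48.5 to 54.2 FPKM with Dox in the MYC cells and from 46.8 to 47.5 FPKM in the vector cells. Its log2 change of 0.16 stayed under 1.2-fold, with a counting error of 0.0227. SF3B2 had 50.3 FPKM in the untreated MYC cells and 53.8 FPKM with Dox, against 48.2 and 48.0 FPKM in the vector cells, a log2 change of 0.10, and SF3B4 had a log2 change of 0.13. SF3B3, the lowest of the family, had vector levels of 12.5 FPKM without and 12.7 FPKM with Dox, and levels of 12.6 and 16.7 FPKM in the MYC cells, with a log2 change of 0.40. These 4 subunits therefore ranged from 0.10 to 0.40, while the vector changes ranged from -0.01 to 0.06.

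The genes that read the branch point and 3′ splice site changed by less than the SF3 median of 0.36. The SF3 genes SF3A1, SF3B1, SF3B2 and SF3B4 did so too, at 0.27, 0.16, 0.10 and 0.13, so the groups overlapped. U2AF1, the small subunit that contacts the AG at the intron end, had 131 and 135 FPKM in the vector cells without and with Dox, and 139.8 and 167 FPKM in the MYC cells. SF1, the branch point binding protein, went from 32.9 to 40.0 FPKM with Dox in the MYC cells and from 30.1 to 32.6 FPKM in the vector cells. Both were highest in the MYC cells with Dox, with log2 changes of 0.25 and 0.28, of which SF1 passed 1.2-fold. U2AF2, the large subunit that binds the polypyrimidine tract, had 55.8 FPKM in the untreated MYC cells and 58.7 FPKM with Dox, against 55.9 and 58.8 FPKM in the vector cells. The 2 libraries with Dox were nearly equal and slightly above the 2 without, and the log2 change was 0.07 in both lines. The level of U2AF1 was 2.51 times that of U2AF2 without Dox and 2.84 times with Dox in the MYC cells, and 2.34 and 2.30 times in the vector cells.

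In the U5 snRNP 1 of 4 members was called higher, near the share of 21% of all genes. SNRNP40, a WD40 repeat protein, had vector levels of 41.3 FPKM without and 44.2 FPKM with Dox, and levels of 45.3 and 55.4 FPKM in the MYC cells, a log2 change of 0.29. The large U5 proteins PRPF8 and SNRNP200 moved less, whereas EFTUD2 of U5, outside the rule for members, changed by 0.53. PRPF8, which holds the active site, had 19.2 and 20.6 FPKM in the vector cells without and with Dox, and 19.4 and 22.1 FPKM in the MYC cells. SNRNP200, the helicase that unwinds U4 from U6, went from 19.6 to 21.8 FPKM with Dox in the MYC cells and from 18.6 to 19.3 FPKM in the vector cells. Their log2 changes of 0.19 and 0.15 compare with 0.10 and 0.06 in the vector cells. PRPF6, the bridge to U4/U6, had log2 changes of 0.12 and 0.08 in the 2 lines.

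Of the 5 members in the U4/U6 and U4/U6.U5 particles 4 were called higher in the MYC cells, against 21% of all genes. PRPF38A, which acts in spliceosome activation, had 18.1 FPKM in the untreated MYC cells and 24.1 FPKM with Dox, against 17.8 and 17.6 FPKM in the vector cells. Only the MYC library with Dox stood apart, a log2 change of 0.41 against -0.02 in the vector cells. The U4/U6 proteins PRPF4, PRPF3 and PRPF31 had log2 changes of 0.37, 0.31 and 0.30, and of 0.03, 0.13 and 0.07 in the vector cells. SNRNP27, a protein of the tri-snRNP, had vector levels of 32.8 FPKM without and 32.3 FPKM with Dox, and levels of 31.3 and 29.9 FPKM in the MYC cells. It was lowest in the MYC cells with Dox, with a log2 change of -0.06 that was smaller than its counting error of 0.0852. That error used the coding length of 465 bases, where the transcript has 1425, and would be smaller with the latter. PRPF31 overlaps TFPT on the opposite strand, whose level went from 83.1 to 63.3 FPKM, and whether fragments were assigned by strand was not stated.

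The 3 members in the U11/U12 snRNP, which are those that the symbol rule took in, differed from each other. SNRNP25 had 152 and 153 FPKM in the vector cells without and with Dox, and 142 and 143 FPKM in the MYC cells. SNRNP35 went from 35.0 to 34.1 FPKM with Dox in the MYC cells and from 39.2 to 38.0 FPKM in the vector cells. Both were lower in the MYC cells than in the vector cells in either state, with log2 changes of 0.0047 and -0.04 with Dox in the MYC cells, and log2 differences of -0.10 and -0.16 between the untreated lines. SNRNP48, whose promoter with an E-box is printed above, had 2.68 FPKM in the untreated MYC cells and 3.68 FPKM with Dox, against 2.93 and 2.88 FPKM in the vector cells. It was highest in the MYC cells with Dox, by a log2 change of 0.44, but at this low level its approximate counting error was 0.180.

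LSM2 to LSM8 form the ring on the 3′ end of U6 RNA. Of these 7 genes 3 were called higher in the MYC cells, against 21% of all genes. LSM5 had vector levels of 33.2 FPKM without and 31.5 FPKM with Dox, and levels of 32.8 and 41.6 FPKM in the MYC cells. LSM6 had 22.4 and 20.7 FPKM in the vector cells without and with Dox, and 22.3 and 26.9 FPKM in the MYC cells. Both were highest in the MYC cells with Dox and lowest in the vector cells with Dox, with log2 changes of 0.34 and 0.27 in the first line and -0.07 and -0.11 in the second. Their counting errors were 0.101 and 0.132. LSM7 went from 213 to 263 FPKM with Dox in the MYC cells and from 221 to 237 FPKM in the vector cells, and it was higher with Dox in both lines, by 0.31 and 0.10. LSM2 and LSM4 had log2 changes of 0.20 and 0.18, under 1.2-fold, with LSM2 going from 99.1 to 114 FPKM and LSM4 from 160.3 to 182 FPKM.

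LSM3 and LSM8 did not follow the other genes of the ring. LSM3 had 167 FPKM in the untreated MYC cells and 157 FPKM with Dox, against 167 and 164 FPKM in the vector cells, lowest in the MYC cells with Dox, with a log2 change of -0.09. LSM8, the subunit that replaces LSM1 and so sets the nuclear ring apart from the cytoplasmic one, had vector levels of 6.82 FPKM without and 7.37 FPKM with Dox, and levels of 7.03 and 6.65 FPKM in the MYC cells. It was the lowest ring gene in all 4 libraries, and its log2 change of -0.08 lay inside its counting error of 0.229. That error used the coding length of 288 bases, where the transcript has 12384, and would be smaller with the latter. LSM1, which takes part in mRNA decay in the cytoplasm, had 27.7 and 29.1 FPKM in the vector cells without and with Dox, and 28.5 and 30.1 FPKM in the MYC cells, and its log2 change was 0.08. The level of LSM8 was 0.247 times that of LSM1 without Dox and 0.221 times with Dox in the MYC cells, and 0.246 and 0.253 times in the vector cells.

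The LSM genes outside U6 held both the highest and the lowest change of the family. LSM12 went from 30.03 to 42.3 FPKM with Dox in the MYC cells and from 27.2 to 29.5 FPKM in the vector cells, a log2 change of 0.49 against 0.12 in the vector cells. LSM10, which belongs to the U7 snRNP for histone mRNA ends, had 73.9 FPKM in the untreated MYC cells and 97.2 FPKM with Dox, against 79.5 and 81.3 FPKM in the vector cells, with a log2 change of 0.40. Its U7 partner LSM11 was near the filter at 1.34 and 1.53 FPKM in the MYC cells. Its log2 change of 0.18 was smaller than the counting error of 0.258. That error used the coding length of 1080 bases, where the transcript has 6567, and would be smaller with the latter. LSM14B, a protein of cytoplasmic RNA granules, had vector levels of 26.5 FPKM without and 26.1 FPKM with Dox, and levels of 27.6 and 22.4 FPKM in the MYC cells. The MYC library with Dox was the lowest, and the log2 change of -0.30 was the only one of the 56 to pass 1.2-fold downwards, against -0.02 in the vector cells. Its paralogue LSM14A changed by 0.10, from 22.1 to 23.6 FPKM, so that LSM14A lay above LSM14B in this library alone.

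The PRPF genes outside these particles differed in their changes. PRPF19, the ubiquitin ligase of a complex that stabilises the activated spliceosome, had 54.0 and 55.7 FPKM in the vector cells without and with Dox, and 56.9 and 74.6 FPKM in the MYC cells. It was highest in the MYC cells with Dox, with log2 changes of 0.39 there and 0.04 in the vector cells. PRPF38B had a log2 change of 0.29. The second-step factor PRPF18 had 9.29 FPKM in the untreated MYC cells and 9.66 FPKM with Dox, against 8.20 and 9.10 FPKM in the vector cells, lowest in the vector cells without Dox, with log2 changes of 0.06 in the MYC cells and 0.15 in the vector cells. The kinase PRPF4B and PRPF39 changed by 0.03 and 0.04. PRPF40B, the lowest of the family, had vector levels of 1.24 FPKM without and 1.54 FPKM with Dox, and levels of 1.48 and 1.49 FPKM in the MYC cells. It was lowest in the untreated vector cells and nearly the same in the other 3 libraries, and its log2 change of 0.29 in the vector cells rests on approximately 129 fragments in the lowest library.

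The 2 lines were compared without Dox to see how far they differed before Dox. None of the 56 members was called higher or lower, where 4.32% of all genes were higher and 1.83% lower in the MYC cells. The largest differences among the members were 0.24 for PRPF40B, 0.19 for SNRPA1, 0.18 for PRPF18 and -0.16 for SNRNP35, and the 7 Sm ring genes differed by -0.08 to -0.02. With Dox in both lines, 27 of 56 members were called higher and 0 lower in the MYC cells, against 22.6% and 24.7% of all genes. This comparison shares the MYC-inducible library with Dox with the first comparison. Its family medians were 0.35 for SNRP, 0.38 for SF3, 0.29 for SF1, U2AF1 and U2AF2, 0.20 for LSM, 0.15 for PRPF and 0.03 for SNRNP. PRPF was the family whose median differed most between the references.

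Features that did not enter the choice of members were also set beside the changes. The members were abundant, with a median of 47.9 FPKM against 10.1 FPKM over the 10217 genes with an annotated transcript, and short, with a median annotated transcript of 2282 bases against 3148. Spearman's rho across genes between the log2 change in the MYC cells and mean FPKM was 0.24 over the 56 members and 0.11 over the 10217 genes, and that with transcript length was -0.18 and -0.06. These are descriptions across genes of 1 pair of libraries. Of 17 members with transcripts under 1500 bases 10 were called higher, and of 39 longer ones 21, against 433 of 1652 and 1691 of 8565 among all genes with an annotated transcript. The members lie on 21 chromosomes, with 9 on chromosome 19 and 8 on chromosome 1. Processed copies are frequent in the SNRP family, with 57 of the 74 pseudogenes named after members in the annotation, among them 20 of SNRPG, 18 of SNRPC and 10 of SNRPE, and the counting could have split reads between such copies. Exons of 20 members overlap another gene. The 36 others had a median log2 change of 0.29 in the MYC cells and 22 called higher, against 21% of all genes.

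**Figure D3:**
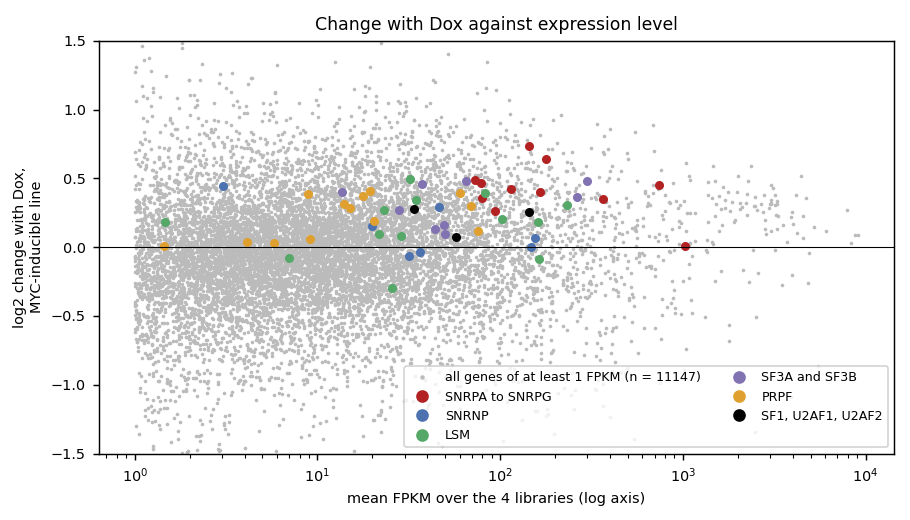
Log2 change with Dox in the MYC cells (y axis) against mean FPKM over the 4 libraries (x axis, log scale), for the 56 members (colours, by family) over all 11147 genes (grey). The axis stops at 1.5 in both directions, which leaves out 86 genes, and 51 of the 56 coloured points lie above 0.

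Other spliceosome proteins, from a list of 60 symbols outside the rule, were looked at in the same way. Of 59 above the filter 21 were called higher and 0 lower with Dox in the MYC cells, and 0 either way in the vector cells, with medians of 0.21 and 0.02. The largest change was that of NHP2L1, the U4 snRNA binding protein, with 197 and 203 FPKM in the vector cells and 187 and 300.0 FPKM in the MYC cells, a log2 change of 0.69. EFTUD2, the GTPase of U5, changed by 0.53, and PHF5A, the remaining SF3B subunit, by 0.28. The lowest was CD2BP2, a U5 protein, at -0.17. The share called higher was 21 of 59 here and 31 of 56 among the members, with 21% of all genes as background.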

How the data were processed

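RNA-Seq of the 4 libraries (HiSeq4000) was deposited by the authors as FPKM values per gene symbol, and the submitters' processing notes name TopHat2 2.0.14 and Cufflinks with hg19 and GRCh37. The gene annotation and the use of strand were not given in the sources used here. Of 27032 rows, 1 without a gene name was dropped and rows of 1 symbol were summed (609 symbols had several; LSM2 among the members). FPKM are not counts and each condition has 1 library, so no model was fitted and no comparison was tested. Changes were differences of log2(FPKM + 0.1). Depth was estimated from 2028 genes under 0.2 FPKM, of which 49.6% had values at whole multiples of 1 step (tolerance 1.2%, up to 12), and from 99 genes with 1 transcript of at least 1500 bases. Counting errors use this depth, which rests on transcript length, with the coding length of each member. They are therefore larger than with the transcript length, most so where the coding part is a small share of the transcript. They cover the sampling of fragments only. GRCh37 positions and lengths came from GENCODE 44. For each family the 3 genes with the highest and the 2 with the lowest difference between the lines were to be named, with listed genes of the rings, U1, U2, U5 and 3′ splice site, 40 in all. Other members, and genes outside the families, were named after their values were seen. The members, lists and thresholds were chosen with earlier results of these data known. Splicing events were not analysed here, and 1 member enters the counts and medians but is not reported singly. Calculations were tested on simulated data with changes larger than 1.5-fold, counted at 1.5-fold. Recovery of smaller changes at the 1.2-fold limit was not tested. The software was pandas 2.3.3, numpy 2.4.6 and matplotlib 3.10.9 under Python 3.11.15.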

Additional observations from a re-analysis of the deposited data

Results flagged for a closer look

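LSM6 and SF3A2 moved in opposite directions with Dox in the 2 lines, each by at least 0.11 on the log2 scale, the robust SD of the vector change over all genes. LSM6, of the ring on U6 RNA, changed by 0.27 in the MYC cells and -0.11 in the vector cells, a difference of 0.38. Its vector change lay inside its approximate counting error of 0.148 and under 1.2-fold. That error used the coding length of 240 bases, where the transcript has 2226, and would be smaller with the latter. SF3A2, of the U2 snRNP, changed by 0.46 and -0.12, a difference of 0.57, and its vector change was also under 1.2-fold. With 1 library per condition neither difference was tested. Of the 40 named genes 16 had opposite signs in the 2 lines. Genes were named in part for a large difference between the lines, so the flag is not independent of that choice. The share of all genes that meet the same rule is not given here.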

How the results depend on the processing

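No paired analysis was possible because there was a single library per condition. Of 272 recomputed summary values 261 stayed within 1.5 times the main count or within the spread of the vector change, 11 moved and 0 changed sign past that spread. The 261 include values that could not move. Dropping the filter, or leaving out pseudogenes and antisense genes, gave the main values again. Leaving out symbols with several rows removed only LSM2 among the members. The tally is therefore not a measure of robustness. At 1.5-fold in place of 1.2-fold, the members called higher in the MYC cells went from 31 to 2, those called lower from 1 to 0, and those called higher in the vector cells from 1 to 0. The last count was also 0 with a pseudocount of 1, with the mean required to reach 5 FPKM, and with the 20 overlapped members left out. The count called lower in the MYC cells was also 0 with LSM2 to LSM8 alone in the LSM family and against the vector cells with Dox. Against that reference the PRPF median was 0.15 in place of 0.29. Without the overlapped members, an alternative chosen after seeing the data, the SNRNP median was 0.18 in place of 0.06 and the PRPF difference between the lines 0.29 in place of 0.18. The causes of these shifts were not tested. Scaling each library to the same FPKM sum left 23 members called higher and 46 higher by sign, and moved the median of all genes to -0.07 and the shares of all genes called higher and lower from 21% and 26.1% to 17.6% and 30.1%. Medians near 0, such as those of the vector cells, can change sign under other scalings. Low genes such as PRPF40B, LSM11 and SNRNP48 are limited by depth.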
